A study of Mus musculus with 6 samples.

Results

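The 8 genes described here are Neat1, Malat1, Meg3, Rian and H19, which make long noncoding RNAs, and Sfpq, Nono and Pspc1, which encode core proteins of paraspeckles. All probe sets annotated to these genes were taken, each on its own, which gave 37 of the 45037 probe sets on the arrays after controls were set aside. The genes were proposed with the genotype differences of these same arrays in view, so their differences are given as a description, and no p-value is printed for them. H19 is covered by 1 probe set, 1448194_a_at, which the platform annotation assigns jointly to H19 and to Mir675, the microRNA gene inside H19. It is called the H19/Mir675 probe set here, because the array does not separate them.

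The arrays compare whole lenses of transgenic and wild-type Balb/c mice at 2 days of age, with 3 arrays in each group. The labels name neither the transgene, its promoter nor the line, and give no other allele or treatment for either group. Per genotype, 12 lenses were used, and how they were divided over the 3 samples is not said. Whether the samples are separate animals is not said either, so the error behind each p-value is the scatter of these 6 samples and could be technical.

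Paraspeckles are nuclear bodies that form on the long isoform of Neat1, to which the RNA-binding proteins Sfpq, Nono and Pspc1 bind. They hold back certain RNAs and proteins in the nucleus, and Neat1 is known to be induced by many kinds of cell stress. Malat1, the gene beside Neat1, makes an abundant RNA of nuclear speckles, where splicing factors gather. Meg3 and Rian are expressed from the maternal copy of the imprinted Dlk1-Dio3 domain, and H19 from the maternal copy of the imprinted region it shares with the growth factor gene Igf2. H19 is also the precursor of miR-675, and Meg3 contains the gene of miR-770.

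Some sequences of these transcription units are shown, taken from the RefSeq tables of GRCm38.p6. The first set is the microRNA carried by H19, since the H19/Mir675 probe set is among the largest differences described below. The hairpin lies at chr7:142577064-142577147 on the minus strand, inside H19, and its mature arms are given with the seed, bases 2 to 8, in capitals. The corresponding arms of miR-770, whose gene lies inside Meg3 on the plus strand (chr12:109563692-109563785 for the hairpin), are shown for comparison. The 4 arms have 4 different seeds. The arrays did not measure mature microRNAs.
mir-675 hairpin: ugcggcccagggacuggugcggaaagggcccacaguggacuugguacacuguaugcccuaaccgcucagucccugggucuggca
mmu-miR-675-5p: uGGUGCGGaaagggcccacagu
mmu-miR-675-3p: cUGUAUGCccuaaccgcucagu
mmu-miR-770-5p: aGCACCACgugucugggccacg
mmu-miR-770-3p: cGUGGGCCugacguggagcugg

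The second set is the promoter window, 250 bases before to 50 bases after the gene start, of Malat1 (chr19:5802623-5802922, minus strand) and of the upstream start of Meg3 (chr12:109540746-109541045, plus strand). They are shown because these RNAs have a probe set past the test's threshold as well as a window in the table. Of the 8 genes, 6 had a window in the table: Malat1, Meg3, Rian, Sfpq, Nono and Pspc1, with 7 windows in all. Capitals mark matches, on either strand, to any of 6 motifs. These are TGTTTAC (forkhead), TGACG (the core of the cyclic AMP element), GAANNTTC (heat shock element), ACGTG (hypoxia element), CCAAT and TATAAA.
Malat1 promoter: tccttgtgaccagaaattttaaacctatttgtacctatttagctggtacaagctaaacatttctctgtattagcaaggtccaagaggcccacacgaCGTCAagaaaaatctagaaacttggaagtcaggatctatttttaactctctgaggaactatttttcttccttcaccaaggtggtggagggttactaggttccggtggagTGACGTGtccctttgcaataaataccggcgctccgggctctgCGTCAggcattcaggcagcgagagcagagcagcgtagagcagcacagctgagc
Meg3 promoter: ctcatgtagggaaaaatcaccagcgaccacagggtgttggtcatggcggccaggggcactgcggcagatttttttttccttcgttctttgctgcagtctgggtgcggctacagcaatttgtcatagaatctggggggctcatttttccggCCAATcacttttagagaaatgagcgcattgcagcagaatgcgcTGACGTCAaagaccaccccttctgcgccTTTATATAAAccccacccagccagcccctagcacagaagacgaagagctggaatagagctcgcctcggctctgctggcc

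The Malat1 window held 3 matches to the cyclic AMP core, of which 1 overlaps its single match to the hypoxia element. The Meg3 window held 2 matches to the cyclic AMP core, which overlap on opposite strands as a palindrome, 1 match to the CCAAT box and 2 overlapping matches to the TATA box. Of 32841 windows of the same length, 20.8% held the cyclic AMP core, 19.6% the hypoxia element, 37.4% the CCAAT box and 13.6% the TATA box. The forkhead motif, present in 3.7% of all windows, was in none of the 7 windows of these genes, and the heat shock element, present in 7.9%, was in that of Rian alone. A match is a description of the letters, not of a bound site.

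Across the 37 probe sets, 3 were higher and 1 was lower in transgenic lenses past an adjusted p of 0.05 in limma's test over all probe sets, and 33 were not past it. Over all probe sets, 1.47% were called higher and 2.21% lower, and since the genes were chosen on this contrast nothing is read from the comparison. The 3 higher probe sets belong to Neat1, H19/Mir675 and Malat1, and the lower one to Meg3. The groups did not overlap in 11 of the 37, with transgenic arrays above wild-type in 8 (13.6% of all probe sets) and below in 3 (13.4%). All differences are transgenic minus wild-type on the log2 scale, with limma's moderated standard error (SE). The median over the 37 was 0.015, beside 0.0039 over all probe sets. In whole-lens RNA, a different share of cells that express a gene and a different amount of RNA per cell cannot be told apart.

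**Figure D1:**
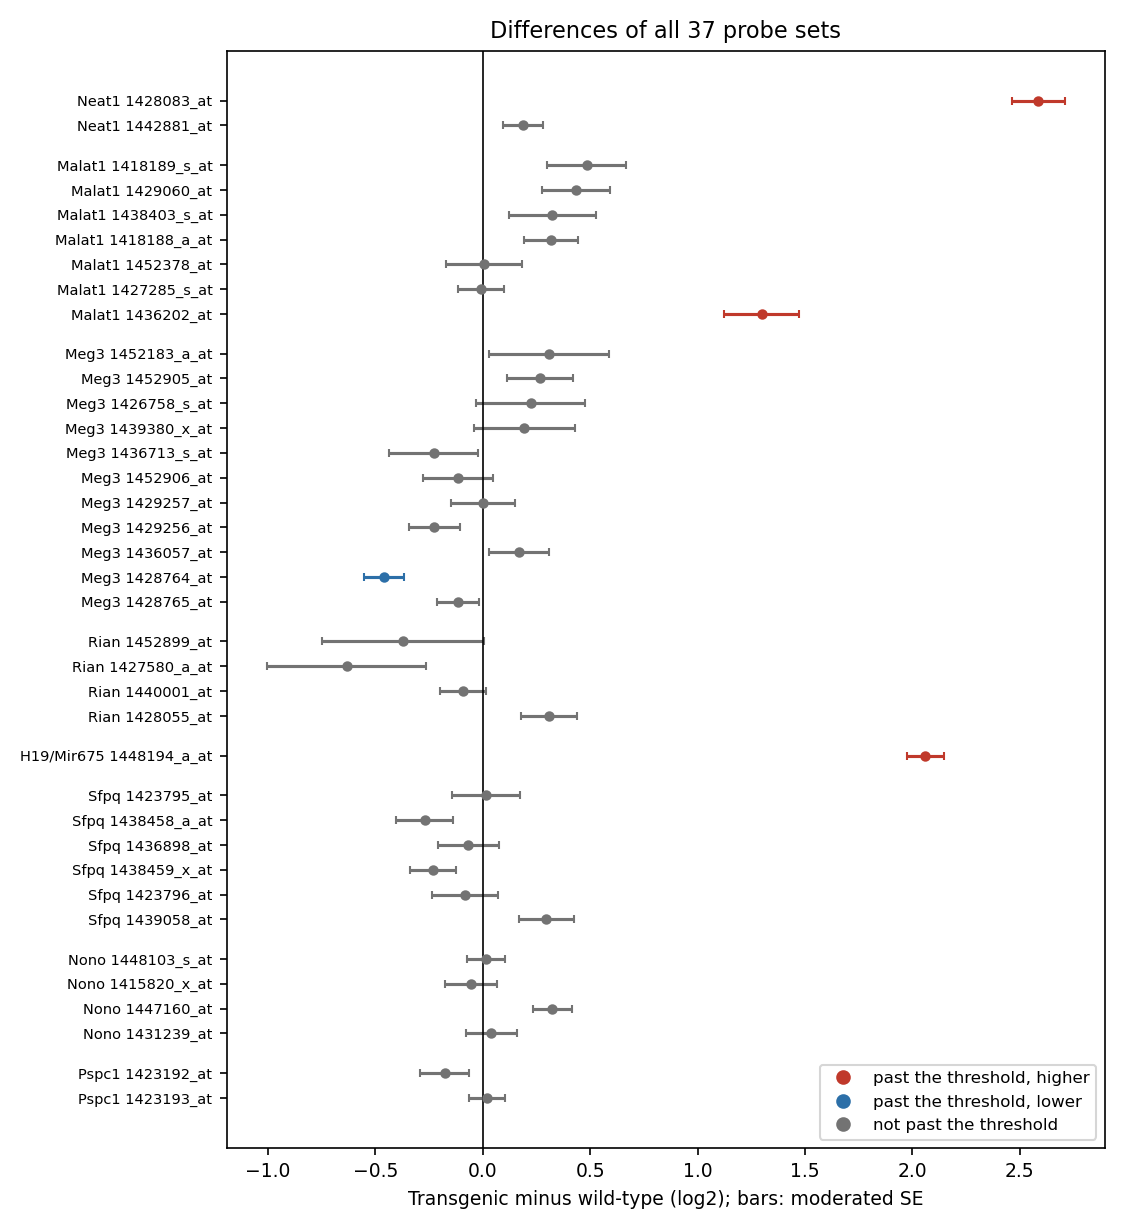
Transgenic minus wild-type difference (log2, horizontal axis) of each of the 37 probe sets, grouped by gene, with the moderated SE as bars. Neat1 1428083_at at 2.59, H19/Mir675 at 2.06 and Malat1 1436202_at at 1.30 lie far to the right of the other probe sets, and the 12 probe sets of Sfpq, Nono and Pspc1 lie between -0.27 and 0.32.

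Some facts of the whole series touch these values. The lens label was borne out by fiber genes close to the upper end of the scale: Cryaa had means of 14.54 (transgenic) and 14.51 (wild-type), and Mip, the fiber water channel gene, 13.35 and 13.31. Of 7 fiber genes 1 was lower, Bfsp1, a beaded filament gene, at 11.97 against 13.64. Transgenic replicate 3 carried transcripts of other tissues: the summed linear level of 14 skin keratinocyte markers was 30060 there and 2058 to 3186 on the other 5 arrays. For 14 skeletal muscle markers the sums were 9957 and 655 to 872, and for 12 fibroblast and mesenchyme markers 14110 and 1302 to 1741. None of these markers passed limma's test between genotypes (1, 1 and 0 at an unadjusted p under 0.05), and 10, 9 and 8 of them had a mean above the median of all probe sets. Neural retina markers were lower in transgenic lenses in 16 of 16 cases, with 1 past the test, and summed to 2192 to 3785 in transgenic and 2990 to 4853 in wild-type lenses. Transgenic replicate 2 had the lowest Y-linked sum, 62.3 against 208 to 243 elsewhere, and the highest pigment cell sum, 5313 against 1858 to 2800. Values in which transgenic replicate 3 stands apart are given with and without it. For short, T1 to T3 are the transgenic and W1 to W3 the wild-type replicates.

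Neat1, the RNA scaffold of paraspeckles, stood at 8.58, 8.44 and 8.89 in T1, T2 and T3 by its brighter probe set, 1428083_at, and at 6.04, 5.99 and 6.11 in W1, W2 and W3. The groups were far apart, and the lowest transgenic array lay above every wild-type array by more than the spread within either group. The means were 8.64 ± 0.23 and 6.05 ± 0.06 (SD, n = 3), a difference of 2.59 ± 0.12 (SE) or 6.01-fold, with a 95% interval of 2.31 to 2.87. It was the second largest rise of all probe sets. Without T3, where skin and muscle transcripts were found, the difference was 2.47, and over all arrays left out in turn it ran from 2.47 to 2.7. The transgenic arrays varied more than the wild-type ones, by 3.98 times in SD.

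The other Neat1 probe set, 1442881_at, was dim, below the median of all probe sets on every array. It read 5.09, 4.85 and 4.89 in T1, T2 and T3 and 4.77, 4.72 and 4.77 in W1, W2 and W3. The groups did not overlap, but the difference was 0.19 ± 0.09 (SE), with an interval of -0.03 to 0.40. Within each array, the brighter probe set stood above the dimmer by 3.49, 3.58 and 4.01 in transgenic and by 1.27, 1.28 and 1.34 in wild-type lenses. A probe set this dim limits what a change could show, so nothing is read from the gap between them. The files do not give the part of the transcript that each probe set matches, so neither can be assigned to the short or the long isoform here.

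The H19/Mir675 probe set was high in all 3 transgenic arrays. It stood at 12.59, 12.54 and 12.71 in T1, T2 and T3 and at 10.49, 10.58 and 10.59 in W1, W2 and W3. The replicates of each group lay within a narrow band, and the bands did not meet. The means were 12.61 ± 0.09 and 10.55 ± 0.05 (SD, n = 3), and the difference was 2.06 ± 0.09 (SE), or 4.17-fold, with an interval of 1.86 to 2.26. It was the fifth largest rise of all probe sets. Without T3, which carried muscle and mesenchyme transcripts, the difference was 2.01, and leaving out any 1 array gave 2.01 to 2.09. The part of other tissues in the difference was not tested.

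**Figure D2:**
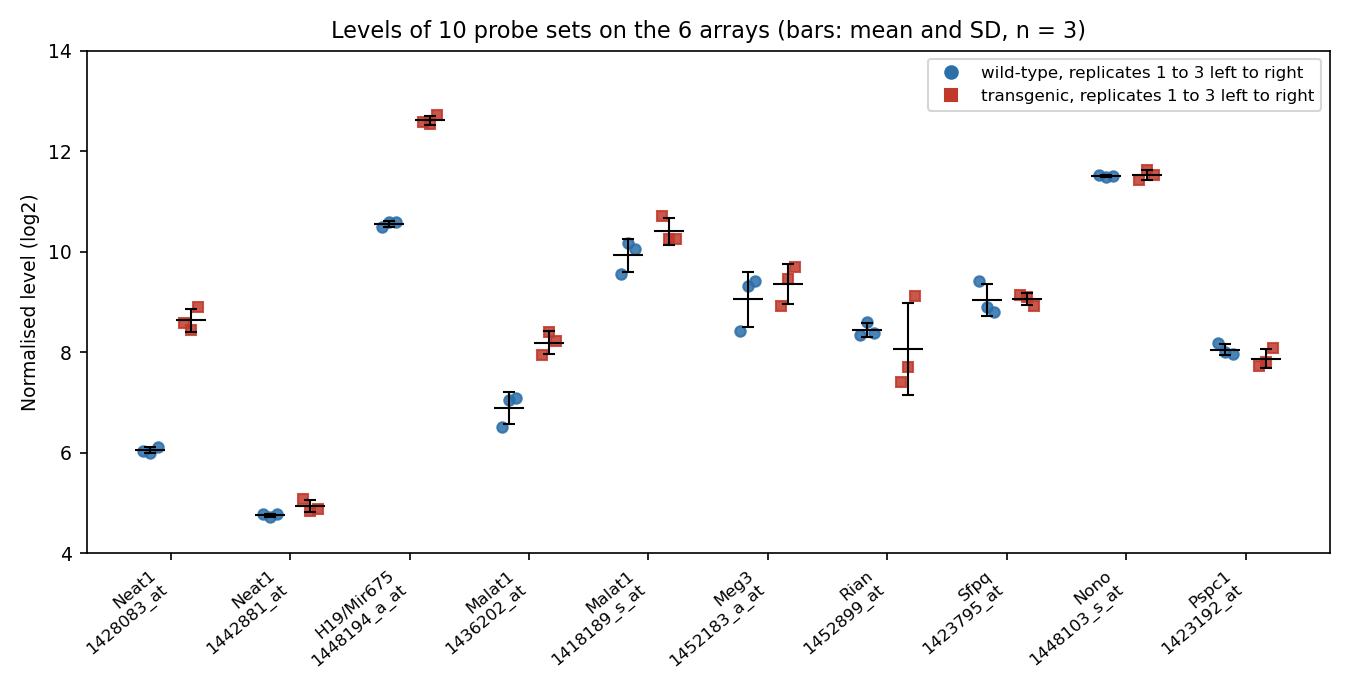
Normalised log2 levels (vertical axis) of 10 probe sets on the 6 arrays, wild-type as circles and transgenic as squares, with mean and SD. Groups of Neat1 1428083_at, H19/Mir675 and Malat1 1436202_at are apart, while Rian 1452899_at shows 1 transgenic array at 9.12 and the other two at 7.40 and 7.70. Levels of different probe sets are not comparable with each other.

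Malat1, the nuclear speckle RNA encoded beside Neat1, has 7 probe sets, all above the median level. By 1436202_at it stood at 7.95, 8.40 and 8.22 in T1, T2 and T3 and at 6.52, 7.05 and 7.09 in W1, W2 and W3. These groups did not overlap, and the difference was 1.30 ± 0.17 (SE), or 2.46-fold. Leaving out any 1 array gave 1.11 to 1.42, and 1.29 without T3. The other 6 probe sets of the gene showed far smaller differences. The brightest, 1418189_s_at, read 10.72, 10.26 and 10.25 in transgenic and 9.56, 10.17 and 10.05 in wild-type arrays, a difference of 0.48 ± 0.18 (SE). In it the groups were separate by a small margin only, 10.25 against 10.17.

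Without W1 the difference of 1418189_s_at was 0.30. A further 3 bright Malat1 probe sets differed by 0.32 to 0.43 (1429060_at by 0.43, 1438403_s_at by 0.32 and 1418188_a_at by 0.32), and 1452378_at and 1427285_s_at by 0.0067 and -0.010. Without W1, 1429060_at, 1438403_s_at and 1418188_a_at differed by 0.25, 0.13 and 0.19. The probe sets 1452378_at and 1427285_s_at changed sign with single arrays left out, and 1452378_at also with the values as deposited or centred. W1 was the lowest wild-type array in all 7 Malat1 probe sets, and T1 the lowest transgenic array in 6. Within each array, 1436202_at minus 1418189_s_at was -2.78, -1.86 and -2.04 in T1, T2 and T3 and -3.04, -3.11 and -2.96 in W1, W2 and W3, so T1 was nearest to the wild-type arrays. The name ending _s_at marks a probe set whose probes match more than 1 transcript by Affymetrix's design. Neat1 1428083_at minus Malat1 1418189_s_at was higher by 2.10 in transgenic than in wild-type arrays.

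Meg3, a maternally expressed RNA of the Dlk1-Dio3 domain, has 11 probe sets, all above the median level. Their differences ran from -0.46 to 0.31, 6 above 0 and 5 below, with a median of 0.0028. The brightest, 1452183_a_at, stood at 8.93, 9.46 and 9.70 in T1, T2 and T3 and at 8.42, 9.32 and 9.42 in W1, W2 and W3. Replicate 1 was the lowest array of both groups, and the groups overlapped. The difference was 0.31 ± 0.28 (SE), with an interval of -0.33 to 0.95, and it was -0.01 without W1. W1 was the lowest wild-type array in 10 of the 11 probe sets and T1 the lowest transgenic array in 8.

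The exception among the Meg3 probe sets was 1428764_at, a dimmer one. It read 6.0, 6.04 and 5.86 in transgenic and 6.36, 6.51 and 6.40 in wild-type arrays, with no overlap. The difference was -0.46 ± 0.09 (SE) and -0.41 without T3. It was past the threshold over all arrays but not with any 1 array left out.

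Rian, the RNA of the same domain that is host to small nucleolar RNAs, was uneven among the transgenic arrays. Its brightest probe set, 1452899_at, stood at 7.40, 7.70 and 9.12 in T1, T2 and T3 and at 8.35, 8.61 and 8.38 in W1, W2 and W3. T1 and T2 were below every wild-type array and T3 above all of them. The next, 1427580_a_at, showed the same order, with 6.11, 6.69 and 7.89 against 7.45, 7.68 and 7.47. Over all arrays the differences were -0.37 ± 0.38 and -0.63 ± 0.37 (SE). Without T3 they were -0.90 and -1.13, and both were then past the threshold. Neither was past it over all arrays or in any other alternative, so nothing is read from that call. The other 2 probe sets of Rian lay below the median level and differed by -0.09 and 0.31.

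Dlk1, the paternally expressed growth regulator of that domain, was high in T3 as well. It stood at 8.56 there, at 5.67 and 5.57 in T1 and T2, and at 5.78, 5.76 and 5.27 in W1, W2 and W3. Its difference was 1.00 ± 0.69 (SE; limma adjusted p = 0.444) over all arrays and 0.02 without T3. The skin, muscle and mesenchyme markers were high in T3, by 2.07 to 2.89 above the mean of the 6 arrays as a median over each list. Their part in the levels of Rian and Dlk1 in T3 was not tested. Igf2, the growth factor gene beside H19, read 10.52, 10.26 and 11.42 in transgenic and 10.09, 10.34 and 10.37 in wild-type arrays. It too was highest in T3, and its difference of 0.47 ± 0.26 (SE) did not pass (limma adjusted p = 0.343) and was 0.13 without T3.

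**Figure D3:**
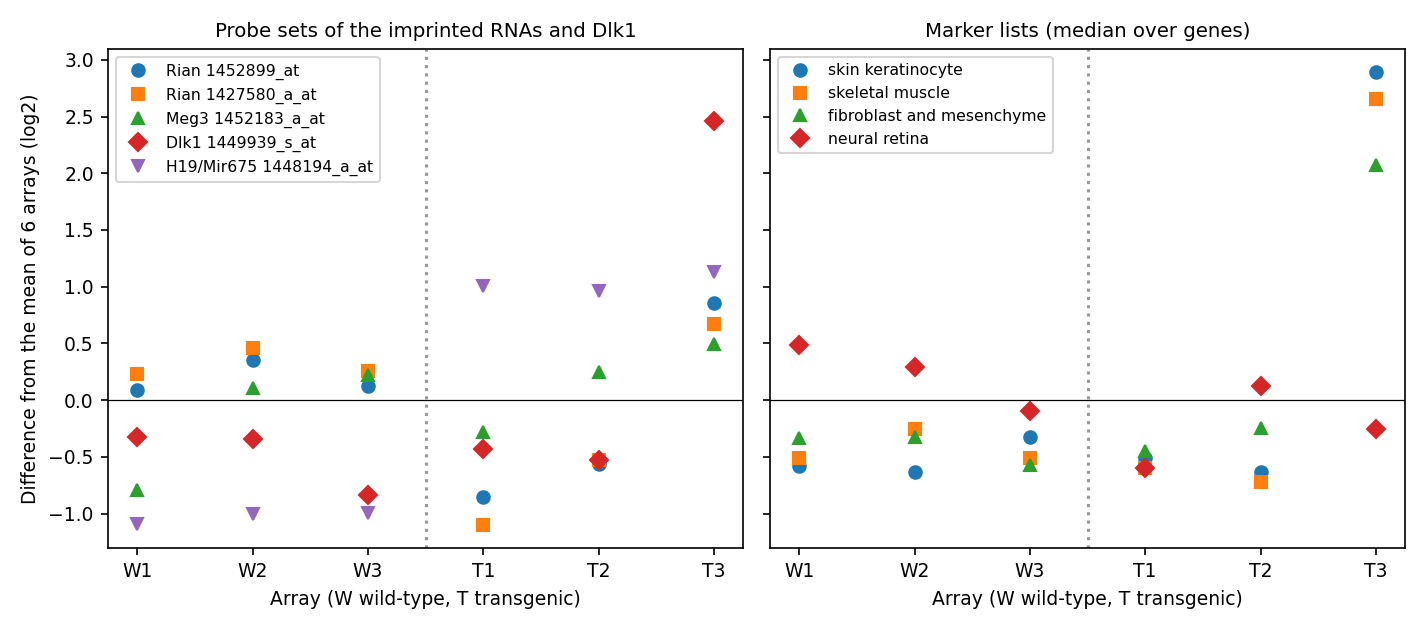
Left, difference of each array from the mean of the 6 arrays (log2) for Rian, Meg3, Dlk1 and H19/Mir675; right, the same for marker lists, as the median over their genes. T3 stands out for Rian, Dlk1 and the skin, muscle and mesenchyme lists, while H19/Mir675 is high in T1, T2 and T3 alike.

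The genes of the proteins that bind Neat1 in paraspeckles showed small differences in RNA. The proteins were not measured. Sfpq, a splicing factor needed for paraspeckles to form, has 6 probe sets, all above the median level, with differences from -0.27 to 0.29. The brightest, 1423795_at, stood at 9.15, 9.10 and 8.92 in T1, T2 and T3 and at 9.41, 8.90 and 8.81 in W1, W2 and W3. The groups overlapped, and the difference of 0.014 ± 0.16 (SE) had an interval of -0.35 to 0.37. In 1438458_a_at and 1438459_x_at, by contrast, every transgenic array lay below every wild-type array, at differences of -0.27 ± 0.13 and -0.23 ± 0.11 (SE). Neither was past the threshold, and the ending _x_at marks probes that may bind other transcripts. 1439058_at went the other way, at 0.29 ± 0.13 (SE).

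Nono, the X-linked partner of Sfpq, stood at 11.42, 11.62 and 11.52 in T1, T2 and T3 and at 11.54, 11.48 and 11.51 in W1, W2 and W3 by its brightest probe set, 1448103_s_at. The groups overlapped, and the difference was 0.015 ± 0.09 (SE), with an interval of -0.19 to 0.22 and a change of sign to -0.06 after centring on a common median. A dimmer probe set, 1447160_at, did not overlap, with 9.16, 9.32 and 9.17 against 8.99, 8.86 and 8.84. Its difference of 0.32 ± 0.09 (SE) was not past the threshold. The other 2 probe sets of Nono differed by -0.06 and 0.04.

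Pspc1, the third protein of the family, had 1 probe set above the median level, 1423192_at. It stood at 7.73, 7.81 and 8.08 in T1, T2 and T3 and at 8.18, 8.0 and 7.98 in W1, W2 and W3. The groups overlapped, with a difference of -0.18 ± 0.12 (SE) and an interval of -0.44 to 0.09. The dim probe set of Pspc1 differed by 0.02. For these 3 genes a shift of the size seen in Neat1 lay outside every interval, while shifts of up to 0.59 did not.

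Genes of other proteins found in paraspeckles were examined from a list, by the brightest probe set of each gene. Of 37 measured genes, 2 fell, none rose and 35 did not pass, and the median difference was -0.09 beside 0.01 over all genes. Over all 18193 genes, 1.85% rose and 2.56% fell. This list and those below were chosen with earlier results of these data known. Nothing is therefore read from such shares, and limma's adjusted p-values of list genes are descriptive. Hnrnph3, which encodes an RNA-binding protein of the hnRNP H family, fell by 0.80 ± 0.10 (SE; limma adjusted p = 0.00565). Tardbp, which encodes the RNA-binding protein TDP-43, fell by 0.62 ± 0.09 (SE; limma adjusted p = 0.0102). The call of Tardbp was lost without T2 (limma adjusted p = 0.0504) or W2 (0.0518), and 4 further probe sets of Tardbp differed by -0.11 to 0.08. Hnrnpk (0.30), Rbm14 (-0.14), Matr3 (0.18) and Hnrnpm (-0.04) did not pass.

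Genes of nuclear speckles and of RNA editing, retention and 3′ end processing gave no calls by their brightest probe sets. In the speckle list 0 of 27 genes passed, and in the editing and processing list 0 of 20 in limma, with 4 and 3 at an unadjusted p under 0.05. With every probe set of these genes counted, 1 of 96 and 0 of 45 were higher and 4 and 1 were lower, beside 1.47% higher and 2.21% lower over all probe sets. The median differences were -0.05 and -0.06. Son, a scaffold protein of speckles, differed by 0.02, the splicing factor gene Srsf1 by 0.20, the RNA-editing enzyme gene Adar by 0.12 and the arginine methyltransferase gene Carm1 by -0.06. Srsf2 differed by 0.10 in its brightest probe set and by -0.52, -0.48 and 0.59 in 3 others, so its probe sets disagreed.

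Among 32 other long noncoding RNAs, Snhg12 fell and 31 did not pass by their brightest probe sets, beside 2.56% that fell over all genes. With every probe set of these genes counted, 2 of 74 were lower and 0 higher. Snhg12, a host gene of small nucleolar RNAs, stood at 9.07, 9.01 and 9.22 in T1, T2 and T3 and at 10.69, 11.18 and 11.33 in W1, W2 and W3. The groups were separate, and the fall was -1.97 ± 0.16 (SE; limma adjusted p = 6.61e-04), a 3.92-fold difference. Kcnq1ot1, an imprinted antisense RNA, differed by 0.05, and Mirg, the microRNA host beyond Rian in the same domain, by 0.10. Xist, the RNA that silences an X chromosome in females, read 10.18, 11.08 and 8.77 in transgenic and 9.87, 9.69 and 10.13 in wild-type arrays. It was highest in T2, where the Y-linked sum was lowest, and lowest in T3.

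Of 30 imprinted genes on a list that includes Dlk1 and Igf2, 3 rose, none fell and 27 did not pass by their brightest probe sets, with a median of 0.05. Over all genes, 1.85% rose and 2.56% fell. With every probe set of these genes counted, 3 of 70 were higher and 1 was lower. The largest difference was that of Dcn, 2.19 ± 1.00 (SE; limma adjusted p = 0.256), which did not pass and was 0.94 without T3. Peg3, a zinc finger gene, rose by 0.46 ± 0.09 (SE; limma adjusted p = 0.0296). Cdkn1c, which encodes the cell cycle inhibitor p57, rose by 0.39 ± 0.08 (SE; limma adjusted p = 0.0363). Ube3a, a ubiquitin ligase gene imprinted in neurons, rose by 0.39 ± 0.08 (SE; limma adjusted p = 0.0416), with 5 further probe sets at -0.06 to 0.21. The calls of Cdkn1c and Ube3a were lost with any 1 array left out (limma adjusted p up to 0.132 and 0.144). That of Peg3 was lost in 5 of 6 such cases (up to 0.111), all but the one without W1. After centring on a common median none of the 30 genes passed upward.

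Neat1 is known to respond to p53, hypoxia and heat shock factors. Of 12 measured stress and immune transcription factor genes, none passed in limma, with 4 at an unadjusted p under 0.05, and Hif1a differed by 0.23. When every probe set of these genes was counted, 1 of 39 was lower. Trp53 and Hsf1 were not measured as single genes. Of 25 target genes of p53, hypoxia and heat shock, 5 fell, none rose and 20 did not pass, beside 2.56% that fell over all genes. The list was chosen with earlier results of these data known, so nothing is read from that comparison. The median was 0.0049, with 14 differences above 0, and with every probe set counted 10 of 60 were lower and 0 higher. Sesn1 and Ccng1, targets of p53, fell by 0.89 ± 0.10 and 0.83 ± 0.10 (SE; limma adjusted p = 0.00365 and 0.00486). The heat shock protein genes Hspb1, which fell by 1.86 ± 0.26, and Hsph1, which fell by 0.64 ± 0.09 (SE; limma adjusted p = 0.00854 and 0.0113), were lower as well. Without T3 the difference of Hspb1 was -2.17, and its call was lost with trended robust variances and with the ordinary test. Hsp90aa1 fell by 0.38 ± 0.08 (SE; limma adjusted p = 0.0401), and its call was lost with any 1 array left out. Other heat shock genes did not pass and went both ways. Hspa1b differed by 0.98 (-0.14 without T3) and Hspa1a by 0.29 (0.07 without T3). Hspa8 differed by -0.04, Dnajb1 by -0.24 and Bag3 by -0.38. The p53 target Cdkn1a (0.90, and 0.48 without T3) and the hypoxia targets Vegfa (0.47) and Bnip3 (0.43) did not pass. Every transgenic array lay above every wild-type array in each and in Pdk1 (0.25), as in 13.6% of all probe sets. Other targets differed little or the other way: Slc2a1 by 0.06, Ndrg1 by 0.08, Mdm2 by -0.007, Bbc3 by 0.02 and Pfkfb3 by -0.44. No rise of p53 or hypoxia targets is read from these genes, which were named after their values were seen.

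**Figure D4:**
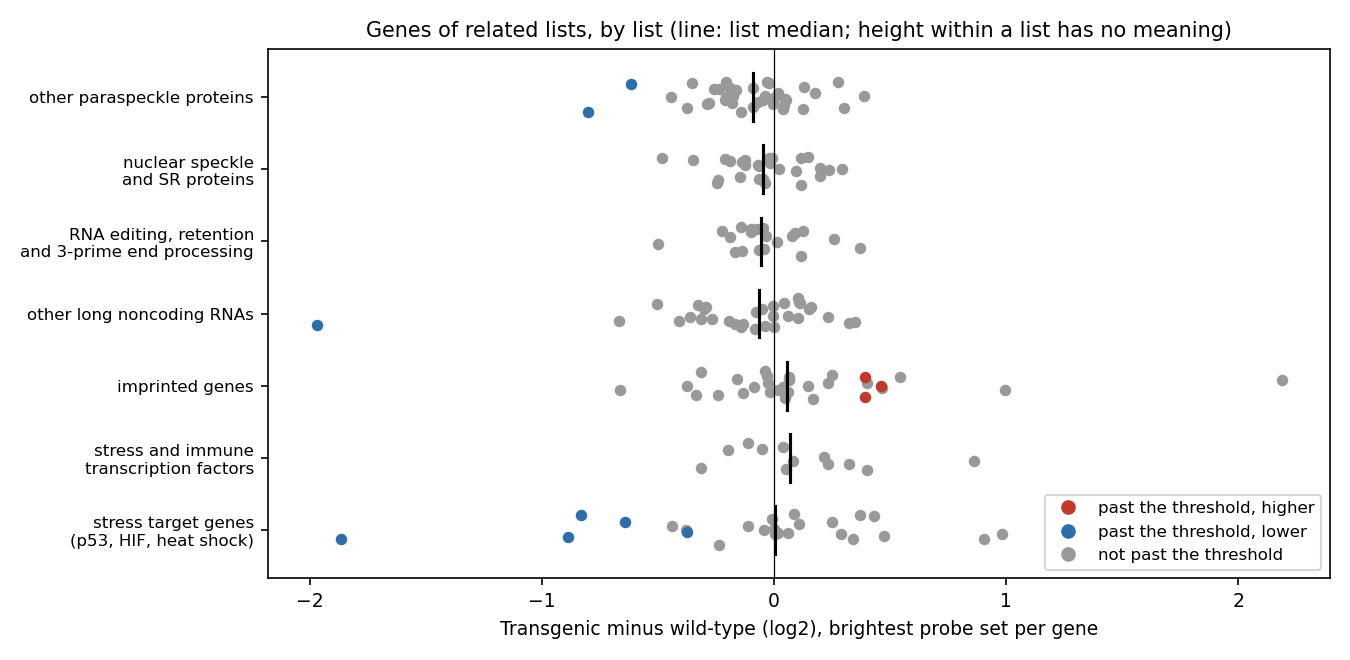
Transgenic minus wild-type difference (log2, horizontal axis) of the brightest probe set of each gene in 7 lists, with the list median as a line. Snhg12 at -1.97 and Hspb1 at -1.86 are the lowest points, and the 2 paraspeckle protein genes past the threshold are Hnrnph3 at -0.80 and Tardbp at -0.62.

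The measured genes next to these RNAs along the chromosome, 4 on each side, were compared to see how far the differences reached. Around Neat1 and Malat1, 1 of 8 neighbours rose and 7 did not pass in limma (3 of the 8 at an unadjusted p under 0.05). Over all genes, 1.85% rose. The neighbour that rose was Frmd8, the nearest measured gene on the Neat1 side, at 7.79, 7.73 and 7.58 in transgenic and 6.98, 7.09 and 7.24 in wild-type arrays. These groups did not overlap, and Frmd8 rose by 0.60 ± 0.10 (SE; limma adjusted p = 0.0215). The call was lost without T1 (0.0679), T2 (0.0886) or W2 (0.0864). The other 7 ran from -0.24 to 0.36, and all of them but Znrd2 were above 0. Around Meg3 and Rian none of 8 genes passed in limma (0 at an unadjusted p under 0.05), with differences from -0.17 to 1.00, the highest being Dlk1, and from -0.20 to 0.44 without T3. Around H19 none of 8 passed in limma (2 at an unadjusted p under 0.05), with differences from -0.13 to 0.89. The muscle genes Tnnt3 (0.89) and Tnni2 (0.80) were the highest there, and both were high in T3, as the muscle markers were. Without T3 they differed by -0.27 and -0.28, and the range around H19 was -0.28 to 0.33.

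**Figure D5:**
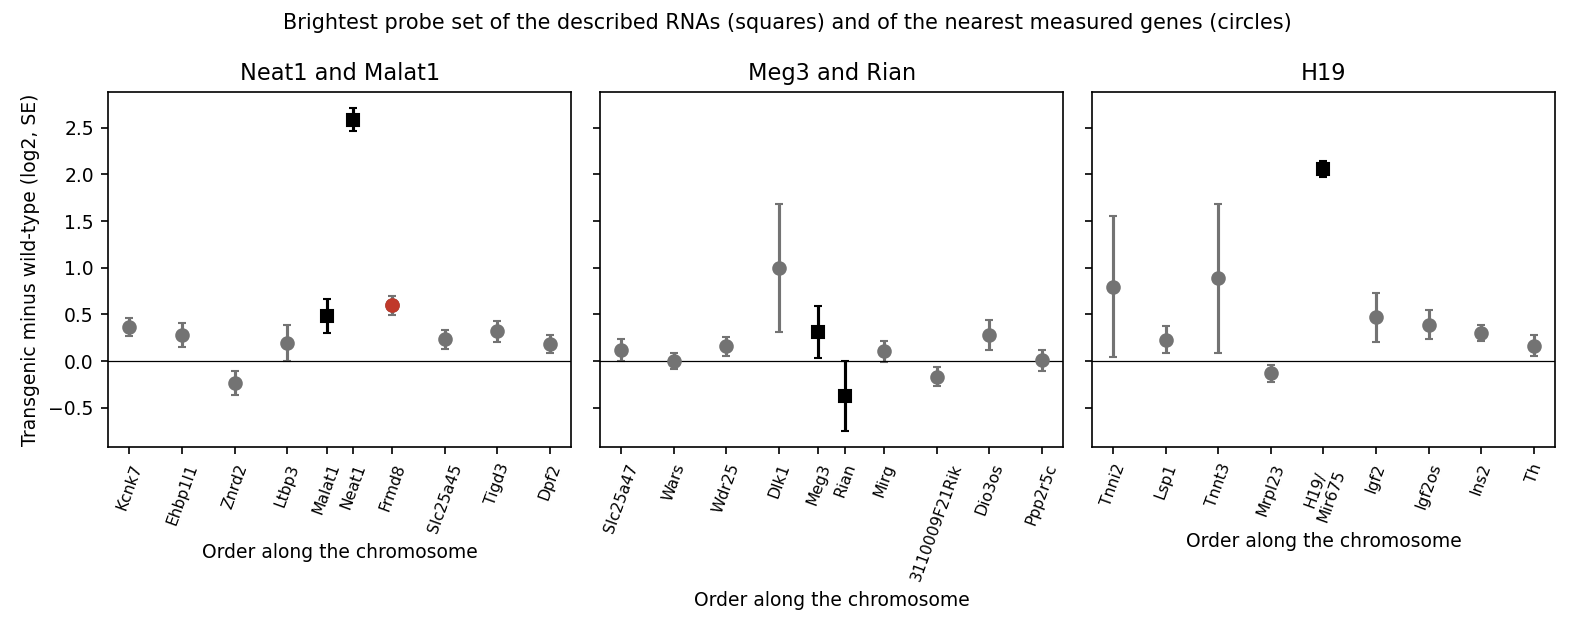
Transgenic minus wild-type difference (log2, with SE) of the nearest measured genes in chromosomal order, equally spaced, around 3 loci; squares are the brightest probe sets of Malat1, Neat1, Meg3, Rian and H19/Mir675. Neat1 at 2.59 and H19/Mir675 at 2.06 stand above all their neighbours, of which Frmd8 at 0.60 alone passed the test.

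The genes most like Neat1 over the 6 arrays were ranked by Pearson's r with 1428083_at, among 20153 probe sets with 1 gene symbol and a mean above the median. The 5 highest were Plk3 (r = 0.999), Tgfb3 (0.998), Nrip1 (0.998), Srpk3 (0.998) and Rap2c (0.997), with differences from 0.45 to 1.07. For H19/Mir675 they were Foxe3 (0.999), Neat1 (0.998), Nmt1 (0.997), Srsf2 (0.997, by its probe set at 0.59) and Pgk1 (0.997). Foxe3, which encodes a forkhead factor of the lens epithelium, stood at 13.33, 13.42 and 13.39 in transgenic and 8.54, 8.86 and 8.82 in wild-type arrays. Every such r rests on 6 arrays in 2 groups, so it mostly reflects the gap between genotypes. An r over 0.95 was reached by 358 probe sets for Neat1 and 391 for H19/Mir675. For Meg3 1452183_a_at, whose groups overlapped, 43 reached it. The closest were Ing1 (0.992), Zmym3 (0.990), Nudcd3 (0.982), Srrm2 (0.981) and Rpp25l (0.981), with differences from 0.07 to 0.22.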

How the data were processed

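Values deposited by the authors are on a log2 scale, judged from their range; how they were summarised and normalised is not given in the sources used here. Per the labels, RNA came from a GenElute kit with IVT labelling. The 64 control probe sets were set aside and the arrays quantile normalised in limma 3.58.1 (R 4.3.3). Every probe set was fitted on its own (lmFit, eBayes), with Benjamini-Hochberg adjustment over all 45037 and a threshold of 0.05. The number of arrays limits the precision. Symbols came from GEO's platform annotation, updated through RefSeq (99.4% matched). In all, 34945 probe sets had 1 symbol, 932 several and 9160 none.

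In simulated arrays for this comparison (45037 probe sets), 10.8% of changes of 0.5, 89.2% of 1 and 99.6% of 2 on the log2 scale were recovered, and 6.38% of calls were false. Each of 5 simulated sets had 200 changed probe sets, with independent normal noise and variances drawn from limma's own prior. The real arrays gave 1656 calls and include T3 with its transcripts of other tissues, so these rates need not hold for them.

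Named list genes follow a rule: up to 4 called genes with the largest difference per list, plus 20 genes listed by name and the genes nearest each locus. The 8 genes and all lists were chosen with earlier results of these data known. Hsp90aa1, Hspa1b, Hspa1a, Hspa8, Dnajb1, Bag3, Dcn, Cdkn1a, Vegfa, Bnip3, Pdk1, Slc2a1, Ndrg1, Mdm2, Bbc3, Pfkfb3 and Bfsp1 fall outside the rule and were named after their values were seen. The other probe sets of Tardbp, Srsf2 and Ube3a are given where they disagree.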

Additional observations from a re-analysis of the deposited data

How the results depend on the processing

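The differences of the 37 probe sets stayed within 1 SD of the spread between replicates in 482 of 484 recalculations. Both exceptions were Nono probe sets after centring on a common median, 1447160_at at 0.21 and 1448103_s_at at -0.06. Several alternatives change only the test, and leaving out 1 of 3 arrays can hardly move a difference that far, so the count says little about stability. Rian 1452899_at counted as within the bar although it went from -0.37 to -0.90 without T3. Sfpq 1423795_at did so too, with a change of sign in 6 of 14 alternatives. Neat1 1428083_at was past the threshold in all 14 alternatives and H19/Mir675 in all 13 that kept it. Malat1 1436202_at was lost only with the ordinary test without moderation, in which 2 of the 37 were higher and 0 lower. Meg3 1428764_at was also lost with the replicate block, where 3 were higher and 0 lower. Whether the replicate numbers pair the samples is not known. Deviations from the group means correlated by 1.49e-05, 0.12 and 0.03 for numbers 1, 2 and 3, and by -0.11 to 0.07 for unlike numbers. T1 correlated best with W3, T2 with W2 and T3 with W3. With 3 arrays per group such values cannot exclude a pairing. With 1 probe set per gene, which drops most of the 37, 1 was higher and 0 lower. Leaving out each array gave 3 higher, and 0 to 2 lower. The 11 called list genes and Frmd8 kept their direction in all 168 recalculations, and their call in 118.

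Over all probe sets, 661 were higher and 995 lower. The counts were 352 and 475 with 1 probe set per gene, 26 and 43 with the ordinary test, 1063 and 1504 with array weights and 230 and 483 with the replicate block. Leaving out each array gave 131 to 398 higher and 303 to 864 lower. Centring on a common median gave 470 higher and 1297 lower. List genes, 3 higher and 8 lower in all, became 4 and 12 with array weights, 0 and 13 after centring, 1 and 11 as deposited, 0 and 1 with the ordinary test, 0 and 7 with the replicate block, and 6 and 10 with trended robust variances. Leaving out each array gave 0 to 1 higher and 6 to 9 lower. Dim probe sets, such as Neat1 1442881_at, limit what a fold can show.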
